A study of Mus musculus with 21 samples.

Results

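Spleen CD11b+ myeloid cells of terminally ill leukemic mice were compared with those of both control genotypes. The comparison took 7 of the 21 libraries of the series, 3 from S3 leukemic MxCre;Ptpn11D61Y/+ mice (animals 540, 815 and 640) and 4 from controls, 2 of them labelled MxCre and 2 labelled Ptpn11D61Y/+. S3 is the terminal stage of the myeloproliferative disease of this model. In MxCre;Ptpn11D61Y/+ mice the Cre recombinase removes a Neo-Stop cassette, after which the mutant Ptpn11 allele is expressed beside a normal allele. MxCre mice carry the Cre and no mutant allele. Ptpn11D61Y/+ mice carry the mutant allele without Cre, so that it stays silent behind the cassette and a single allele is active. According to the study's methods, mice of all genotypes received poly I:C, which switches on the interferon-driven Mx1 promoter of the Cre. This promoter is not restricted to myeloid cells, so other hematopoietic cells can carry the mutation as well. The labels give no age and no batch. Of 15726 genes with enough counts, 967 had every S3 library on one side of all 4 controls (6.15% of the genes tested), 566 with S3 above the controls (3.6%) and 401 with S3 below them (2.55%). These 967 genes, called separated in what follows, were chosen by their values in this comparison, so the separation describes them and is not a test.

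Ptpn11 encodes the tyrosine phosphatase SHP2, which carries signals from growth factor receptors to RAS and ERK. Activating Ptpn11 mutations are a frequent cause of juvenile myelomonocytic leukemia, in which myeloid cells accumulate in the marrow, the spleen and other organs. The mouse spleen is also a site of blood formation, where red cell precursors multiply when the demand for blood cells is high. CD11b, the integrin subunit encoded by Itgam, is carried by monocytes, neutrophils and macrophages, and also by some dendritic cells and NK cells.

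The libraries held between 52965938 and 80382578 counts. All 7 had the defining genes of the CD11b+ fraction. Itgam had at least 9210 counts in each, Itgb2, its partner subunit, at least 12841, and the myeloid transcription factor gene Spi1 at least 22733. Lyz2, the lysozyme gene of monocytes and neutrophils, had at least 167433 counts.

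Some libraries stood apart. MxCre replicate 1 had the fewest genes with a count, at 14641, against 18353 to 22483 in the other 6. In Ptpn11D61Y/+ replicate 1, mitochondrial genes held 3.79% of counts, against 0.317% to 0.682% elsewhere. The library of S3 animal 540 held counts of the female transcript Xist (712) together with Y-linked transcripts (1275 for Ddx3y and 2084 for Eif2s3y), so it contained RNA of both sexes, whereas the LSK library with the same animal number had 1 Xist count. Ptpn11D61Y/+ replicate 1 and S3 animal 815 were female by these genes and the remaining 4 libraries were male, and the part of sex in the differences was not tested. S3 animal 640 was the highest of all libraries for many of the genes described here. Values without some of these libraries are given beside the lists and genes that they moved most. Leaving out any single library also raised the separated counts over all genes, to between 717 and 1531 upward and between 541 and 1024 downward.

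Levels are given as log2 CPM, read counts scaled to the normalised library size on a log2 scale, in the order MxCre 1 and 2, Ptpn11D61Y/+ 1 and 2, and S3 animals 540, 815 and 640. Differences are log2 fold changes of S3 minus control from edgeR's quasi-likelihood fit of the 7 libraries, with Benjamini-Hochberg adjusted p values over all 15726 genes. A difference of 1 is a doubling.

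Ptpn11 itself, on mouse chromosome 5 (GRCm38 chr5:121130533-121191397, minus strand), was examined first, since it carries the mutation. It was at 3.73 and 5.03 log2 CPM in the MxCre libraries, at 5.72 and 4.90 in those labelled Ptpn11D61Y/+ and at 6.25, 5.69 and 6.94 in S3. The highest control and the lowest S3 library overlapped by 0.03. The log2 fold change was 1.38 (SE 0.476, adjusted p = 0.462). The mean difference of 1.45 gave p = 0.114 in a two-sided exact permutation test over 35 regroupings, whose smallest possible p is 0.0571. Only the sample-weighted limma-voom fit called the gene, at 1.24 (adjusted p = 0.0449). Counts per gene do not tell the mutant from the normal allele, and the gene model Gm42930 overlaps Ptpn11 on the same strand.

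A single gene passed an adjusted p of 0.05 (0.00636% of those tested). Cxcl14, which encodes a chemokine of epithelial and some blood cells, rose in S3. It had 0 and 14 counts in MxCre, 11 and 6 counts in Ptpn11D61Y/+ and 1476, 571 and 3732 counts in S3. Its log2 CPM was at most -1.78 in controls and between 3.31 and 5.27 in S3, so that all 3 S3 libraries lay far above controls that barely expressed it. The log2 fold change was 7.43 (SE 0.793, adjusted p = 0.013), with control counts close to 0 setting its size. The gene lies on chromosome 13 (GRCm38 chr13:56288643-56296551, minus strand), and in marrow CD11b+ cells its groups overlapped, with a log2 fold change of 2.02 (SE 1.39). The call was lost when any single control was left out, with adjusted p between 0.0563 and 0.238, and kept when any S3 library was left out, at 0.0312 without animal 540, 0.00578 without 815 and 0.035 without 640. Without both animal 540 and MxCre replicate 1 it was 7.22 (adjusted p = 0.653).

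Before adjustment, 1308 genes (8.32%) had p under 0.05, 674 of them with higher and 634 with lower levels in S3. Groups that lay at least 1 log2 unit apart were found for 53 genes upward (0.337%) and 58 downward (0.369%). The number of calls depended on the tool, since DESeq2 called 99 genes higher and 115 lower and the sample-weighted limma-voom fit 237 and 120. A gene is therefore described below by its library values and its edgeR p, and a DESeq2 p is added for some genes on which both tools differ.

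Slamf9 had the widest separation upward among genes averaging 4 log2 CPM or more. It is a receptor gene of the SLAM family found on macrophages and dendritic cells, and was at 4.70, 3.22, 3.13 and 3.42 log2 CPM in controls and at 6.5, 6.83 and 6.48 in S3. Its 3 S3 libraries lay close together and at least 1.78 above every control. The log2 fold change of 2.84 (SE 0.441) had an adjusted p of 0.138 with edgeR and 2.71e-05 with DESeq2, and was 3.40 without animal 540 and MxCre replicate 1. Fcgr4, an activating Fc receptor that binds IgG on monocytes and macrophages, was at 7.47, 7.75, 6.45 and 5.93 in controls and at 9.47, 9.12 and 9.66 in S3. Its groups were 1.37 apart, and the log2 fold change was 2.35 (SE 0.501, adjusted p = 0.298, and 0.00251 with DESeq2).

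Fcrl5, an Fc receptor-like gene best known from B cells, separated the control genotypes as well. It was at 0.47 and -0.30 in MxCre, at 5.25 and 5.29 in Ptpn11D61Y/+ and at 6.93, 6.25 and 7.73 in S3. Both Ptpn11D61Y/+ controls were thus nearer to S3 than to MxCre, and the log2 fold change of S3 was 7.01 against MxCre alone (adjusted p = 0.0352) and 1.83 against Ptpn11D61Y/+ alone (adjusted p = 0.360). Fcrl5 was also separated in marrow CD11b+ cells, with a log2 fold change of 4.89.

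Of 13 Fc receptor and MS4A genes, a list drawn up after values of these data were seen, 3 were separated upward and none downward (3.6% and 2.55% of all genes). Fcgr1, the high-affinity IgG receptor, was at 5.08, 5.13, 4.69 and 5.12 in controls and at 6.15, 6.28 and 5.88 in S3. Ms4a6d, a membrane protein gene of myeloid cells, was at 4.28, 4.76, 4.11 and 4.83 in controls and at 5.95, 5.76 and 6.07 in S3. Both differed little within S3. The most abundant gene of the list per length, Fcer1g, the shared signalling chain of these receptors, overlapped, with a log2 fold change of -0.12 (SE 0.502).

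**Figure D1:**
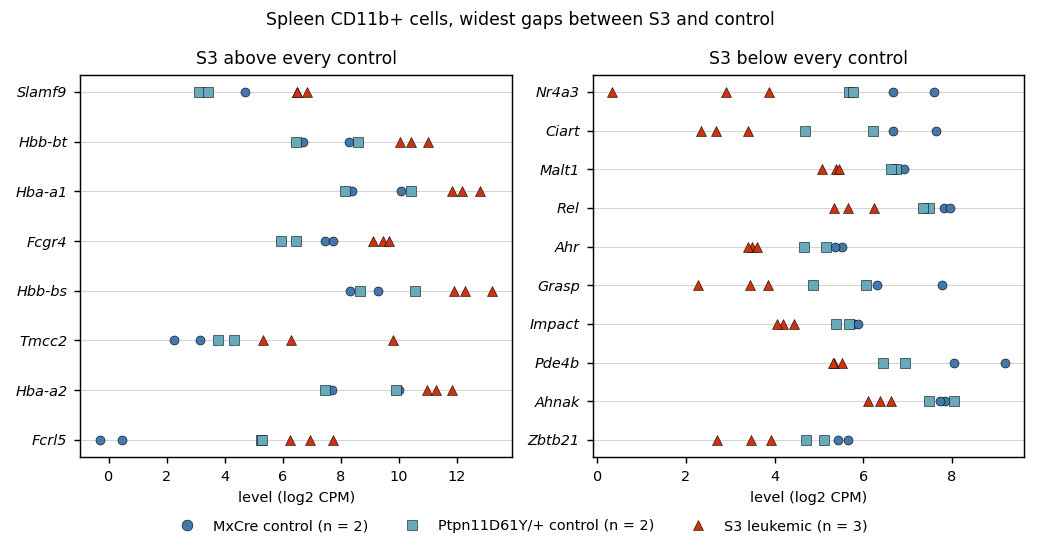
Levels (log2 CPM) of 8 of the 10 genes with the widest separation upward and of all 10 downward, among genes averaging 4 log2 CPM or more, with a point for each spleen CD11b+ library and a symbol for each group. Every S3 triangle lies on one side of all 4 controls, while the control genotypes differ from each other for Fcrl5 and for several genes on the right.

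Hemoglobin is built from alpha chains (Hba-a1 and Hba-a2) and beta chains (Hbb-bs and Hbb-bt), which carry heme, and these genes are transcribed in erythroid cells under GATA1 and KLF1. All 4 adult globin genes that could be tested, of 7 in the list, were separated upward. Hbb-bs, the most abundant per length, was at 9.30, 8.33, 10.55 and 8.67 log2 CPM in controls and at 12.27, 11.91 and 13.23 in S3, a log2 fold change of 3.10 (SE 0.695, adjusted p = 0.301, and 0.000842 with DESeq2). Hba-a1 was at 10.09, 8.39, 10.42 and 8.14 in controls and at 11.85, 12.19 and 12.81 in S3. The S3 libraries were close together, while the controls spread more widely, with replicate 1 above replicate 2 in both genotypes. The paired alpha genes, and the paired beta genes, are near copies, so the split of reads between them is uncertain. Globin genes together held 0.252%, 0.0677%, 0.545% and 0.109% of counts in controls and 1.21%, 1.27% and 2.57% in S3.

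The upstream sequences of the globin genes with the widest separation, the first 250 bases before the RefSeq start in GRCm38.p6, are shown because erythroid promoters are known for short CACCC boxes and GATA sites. Hbb-bt lies on the minus strand (chr7:103813924-103814173) and Hba-a1 on the plus strand (chr11:32283422-32283671). Capitals mark the CACCC box (CCACCC, searched on both strands), and neither window held the GATA letters AGATAA or their complement. Other forms of these sites were not searched. CACCC after a base other than C is therefore unmarked in both windows, as is TGATAA in that of Hba-a1.
Hbb-bt: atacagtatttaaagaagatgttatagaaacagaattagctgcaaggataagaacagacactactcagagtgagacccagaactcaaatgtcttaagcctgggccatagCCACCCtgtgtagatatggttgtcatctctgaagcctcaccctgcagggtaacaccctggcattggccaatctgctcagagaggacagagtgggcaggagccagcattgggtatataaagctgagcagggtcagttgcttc
Hba-a1: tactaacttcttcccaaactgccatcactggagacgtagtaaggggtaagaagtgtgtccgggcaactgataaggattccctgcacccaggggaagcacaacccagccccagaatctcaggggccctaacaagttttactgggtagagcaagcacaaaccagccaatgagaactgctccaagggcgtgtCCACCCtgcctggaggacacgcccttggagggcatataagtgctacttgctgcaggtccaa
Over the globin, erythroid and heme lists, CCACCC was found in 16 of 33 promoter windows (48.5%) of the 28 genes with a window, out of 41 listed, and in 28.1% of all 32851 windows. AGATAA was found in 8 of these 33 windows (24.2%) and in 9.99% of all windows. These matches describe the letters and not binding.

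Genes of the red cell membrane and its regulators had the largest median difference of all lists with all 7 libraries, though not without animal 640, when the globin median of 2.41 was larger. Of 25 members, 24 could be tested, and 10 were separated upward and none downward. Their median log2 fold change was 4.96, against 0.04 over all genes. Slc4a1, the anion exchanger band 3 of the red cell membrane, was at 3.15, 1.75, 5.56 and 0.79 in controls and at 6.88, 6.10 and 11.48 in S3 (log2 fold change 6.05, SE 1.57, adjusted p = 0.348, and 2.57 without animal 640). Animal 640 was far above the other S3 libraries, and Ptpn11D61Y/+ replicate 1 was the highest control. The blood group protein gene Rhd was at -3.73, 0.79, 2.24 and -1.35 in controls and at 4.76, 3.40 and 7.09 in S3, with the same order within S3. Cldn13, a claudin of erythroid cells, was at 1.13, 0.20, 0.96 and -1.16 in controls and at 3.99, 2.75 and 6.76 in S3.

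Regulators of red cell formation were less far apart. Gata1, the transcription factor of erythroid and megakaryocytic cells, was at 2.01, 2.34, 2.22 and 1.99 in controls and at 3.71, 2.76 and 6.5 in S3. Epor, the erythropoietin receptor, was at 2.30, 2.47, 2.79 and 1.76 in controls and at 3.82, 2.82 and 6.31 in S3, which left a gap of 0.02. Summed over the list, these genes held 332, 385, 484 and 234 CPM of library counts in controls and 990, 500 and 11560 in S3. The list median was 2.0 without animal 640, 5.40 without animal 540, and 5.02 without both animal 540 and MxCre replicate 1. Without animal 815, the lowest S3 library here, 21 members were separated upward, and without Ptpn11D61Y/+ replicate 1 it was 18. Genes separated upward over all genes rose as well, from 566 to 1531 and 1184. The Gata1 difference of 3.07 was 1.13 without animal 640.

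Heme enzymes were highest in animal 640 as well, by their summed level. Of 9 enzymes, 5 were separated upward, with a list median of 1.91. Alad, an early enzyme of the pathway, was at 4.32, 3.65, 4.57 and 4.61 in controls and at 5.45, 5.76 and 7.01 in S3. Alas2, the erythroid form of the first enzyme and the most abundant of the list per length, overlapped by 0.07, because Ptpn11D61Y/+ replicate 1 reached 6.35 and S3 animal 815 was at 6.28. Without animal 640 the list median was 0.91. Tmcc2, abundant in maturing red cells, was among the 10 widest separations. Tmcc2 was at 3.15, 2.26, 4.34 and 3.76 in controls and at 6.29, 5.33 and 9.82 in S3, a log2 fold change of 4.85 that was 2.29 without animal 640. In bulk RNA, more cells of a type and more RNA per cell cannot be told apart.

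**Figure D2:**
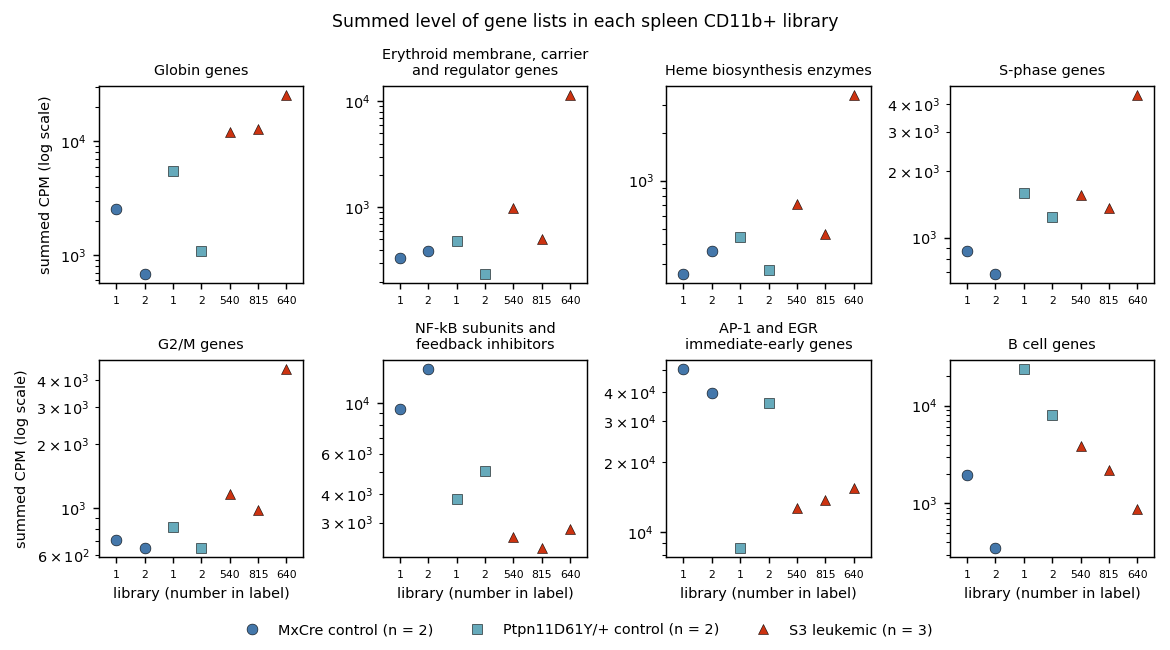
Summed level (CPM of library counts, log scale) of 8 gene lists in each of the 7 libraries, with the number of each library under the axis. Globin sums of the 3 S3 libraries lie above those of all 4 controls, and animal 640 stands above all others in the erythroid, heme, S-phase and G2/M panels.

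No gene of the cell-cycle lists passed the adjusted threshold with edgeR. Of 35 G2/M genes, which act in mitosis, 18 were separated upward and none downward, with a median log2 fold change of 1.65 and all 35 fold changes above 0. Ccnb2, a mitotic cyclin, was at 4.59, 4.79, 4.26 and 4.30 in controls and at 5.60, 5.29 and 6.77 in S3 (log2 fold change 1.54, SE 0.401, adjusted p = 0.348, and 0.92 without animal 640). Kif11, a motor of the mitotic spindle, was at 4.22, 4.75, 4.61 and 4.32 in controls and at 5.24, 5.20 and 7.09 in S3. Nuf2, part of the kinetochore, was at 1.24, 2.86, 2.92 and 2.82 in controls and at 3.78, 3.47 and 5.17 in S3. Controls were close together for the first pair, while MxCre replicate 1 was low for Nuf2. Ube2c, the most abundant G2/M gene per length, overlapped, since MxCre replicate 1 reached 6.94 and S3 animal 540 was at 6.16.

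Of 37 S-phase genes, which copy DNA or make its building blocks, 12 were separated upward and none downward, with a median of 1.29. Ccne1, the cyclin of S-phase entry, was at 2.87, 3.07, 2.82 and 2.56 in controls and at 3.74, 3.96 and 5.72 in S3 (log2 fold change 1.93, SE 0.507, adjusted p = 0.348, and 0.98 without animal 640). Tk1, thymidine kinase, was at 4.35, 4.80, 4.87 and 4.90 in controls and at 5.91, 5.54 and 7.19 in S3. Mcm5, part of the replicative helicase, was at 6.10, 5.84, 6.18 and 5.98 in controls and at 6.75, 6.70 and 7.94 in S3. Pcna, the most abundant S-phase gene per length, was within 0.25 of the controls on the log2 scale (SE 0.343).

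Animal 640 led these lists too. G2/M genes summed to 705, 647, 816 and 647 CPM in controls and to 1160, 984 and 4534 in S3, and S-phase genes to 873, 684, 1591 and 1233 in controls and to 1557, 1356 and 4395 in S3. The S-phase sum of Ptpn11D61Y/+ replicate 1 was above those of animals 540 and 815. Without animal 640 the G2/M median was 0.66 and the S-phase median 0.50. Without animal 815, 29 G2/M and 19 S-phase genes were separated upward, and without Ptpn11D61Y/+ replicate 1 it was 23 and 22. The upward count over all genes was 1531 and 1184 in these settings, against 566 with all libraries. Without animal 540 and MxCre replicate 1 the medians were 1.76 and 1.30. The erythroid and cell-cycle lists thus had the same highest library. Whether any of the cell-cycle levels came from erythroid cells, which the CD11b separation does not select, was not tested.

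A promoter of a separated G2/M gene is shown because mitotic promoters are known for CCAAT boxes. The window of Bub1, a mitotic checkpoint kinase gene, holds the 250 bases before the RefSeq start on the minus strand (GRCm38.p6 chr2:127831860-127832109), with the letters CCAAT and their complement ATTGG in capitals.
Bub1: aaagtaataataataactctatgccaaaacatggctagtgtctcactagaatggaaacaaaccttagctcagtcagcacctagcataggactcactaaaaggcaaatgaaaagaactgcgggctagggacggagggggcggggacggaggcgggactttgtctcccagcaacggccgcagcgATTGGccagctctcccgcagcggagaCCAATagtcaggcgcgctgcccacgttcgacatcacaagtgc
Bub1 was at 1.89, 2.86, 2.68 and 2.60 in controls and at 3.40, 3.36 and 4.97 in S3. CCAAT on either strand was found in 24 of 31 windows of G2/M genes (77.4%) and in 33.8% of all windows. TTTGAA, the letters of the cell cycle homology region, was in 35.5% of G2/M windows and 16.0% of all. For the S-phase list, the E2F letters TTTCCCGC were in 3 of 36 windows (8.33%, against 0.895% of all) and TTTGGCGC in 3 of 36 (8.33%, against 0.417%), on either strand. The windows of Nuf2, Ccne1 and Tk1 held none of the letters searched for their lists.

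Nr4a3 had the widest separation downward among genes averaging 4 log2 CPM or more. NR4A receptors are orphan nuclear receptors that are switched on quickly by receptor signals. Nr4a3 was at 7.59, 6.67, 5.67 and 5.77 log2 CPM in controls and at 2.91, 3.87 and 0.34 in S3, a log2 fold change of -3.69 (SE 0.833, adjusted p = 0.301, and 0.000789 with DESeq2). Nr4a2 was at 4.87, 4.12, 4.53 and 4.44 in controls and at 1.82, 2.27 and 1.90 in S3. Its values were tight within both groups and at least 1.85 apart, and the log2 fold change of -2.51 (SE 0.387) had an adjusted p of 0.138 with edgeR and 1.46e-08 with DESeq2. It stood at -2.29 without animal 540 and MxCre replicate 1. In marrow CD11b+ cells the Nr4a2 difference was 1.54 and the groups overlapped.

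Of 24 AP-1 and EGR immediate-early genes, 3 were separated downward and none upward, with a median of -1.46. The third, Maff, a small MAF factor, was at 7.11, 7.36, 5.21 and 6.36 in controls and at 4.86, 4.28 and 3.95 in S3. Junb, an AP-1 subunit and the most abundant of the list per length, was at 13.87, 13.77, 9.10 and 12.03 in controls and at 10.36, 11.29 and 9.60 in S3. Its S3 values lay inside the range of the Ptpn11D61Y/+ controls. The single library of Ptpn11D61Y/+ replicate 1 decided how many members overlapped, since 18 of 24 were separated downward without it. Over all genes, the downward count rose from 401 to 958 without it. The list summed to 50600 and 39820 CPM in MxCre, to 8508 and 35830 in Ptpn11D61Y/+ and to 12660, 13810 and 15540 in S3, and this library was the lowest of all.

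NF-kB is kept in the cytoplasm by IkB inhibitors, and it induces its own inhibitors once active. Of 18 genes of NF-kB subunits and feedback inhibitors, 8 were separated downward and none upward, with a median of -0.86. Rel, which encodes the subunit c-Rel, was at 7.82, 7.95, 7.48 and 7.34 in controls and at 5.66, 6.24 and 5.35 in S3. Both control genotypes were close together, 1.10 or more above S3, and the log2 fold change was -1.87 (SE 0.380, adjusted p = 0.298, and 0.000376 with DESeq2). Malt1, not a member of the list, is a protease and scaffold that carries receptor signals to NF-kB, and it was at 6.92, 6.69, 6.73 and 6.63 in controls and at 5.39, 5.45 and 5.07 in S3. It was as tight, with a log2 fold change of -1.43 (SE 0.307, adjusted p = 0.298).

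Tnfaip3, Birc3, Nfkbib and Nfkbia were higher in both MxCre libraries than in both Ptpn11D61Y/+ libraries, a difference that was not tested. Tnfaip3, which encodes the ubiquitin editor A20, was at 10.05, 11.22, 8.50 and 9.37 in controls and at 7.34, 6.75 and 7.91 in S3 (log2 fold change -2.72, SE 0.704, adjusted p = 0.348). Birc3, a ubiquitin ligase of the pathway, was at 8.02, 8.75, 6.89 and 6.97 in controls and at 6.46, 6.69 and 6.30 in S3. Nfkbib, which encodes IkB-beta, was at 7.58, 8.28, 5.99 and 6.51 in controls and at 5.82, 5.79 and 5.32 in S3. Nfkbia, which encodes IkB-alpha and is the most abundant of the list per length, was at 12.67, 13.42, 8.41 and 10.10 in controls and at 8.82, 8.95 and 8.72 in S3. In each of these genes MxCre was highest, and for Nfkbia the Ptpn11D61Y/+ controls lay on both sides of S3. The log2 fold change of Nfkbia was -4.26 against MxCre alone (adjusted p = 0.0432) and -0.65 against Ptpn11D61Y/+ alone (adjusted p = 0.978). The list summed to 9437 and 14100 CPM in MxCre, to 3793 and 5043 in Ptpn11D61Y/+ and to 2606, 2318 and 2820 in S3. Its median was -1.16 without animal 540 and MxCre replicate 1, with 9 members separated downward and 1 upward. All genes gave 1014 downward and 1139 upward in that setting, against 401 and 566 with all libraries. With single libraries left out, the list median ranged from -1.10 (without animal 540) to -0.60 (without MxCre replicate 2).

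**Figure D3:**
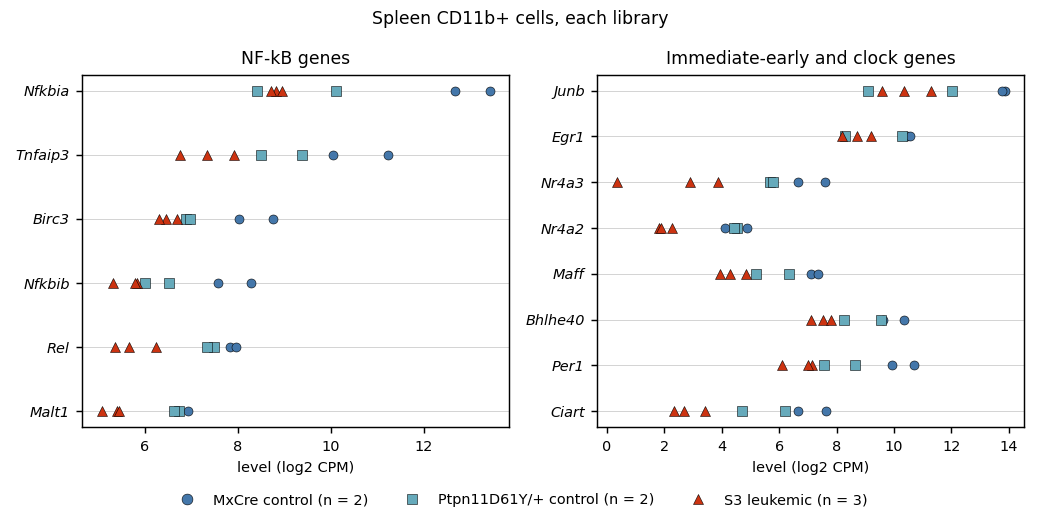
Levels (log2 CPM) of 6 NF-kB pathway genes (left) and 8 immediate-early and clock genes (right), with a point for each spleen CD11b+ library. Rel, Malt1 and Nr4a2 show both control genotypes close together and above S3, whereas for Nfkbia and Junb the S3 values fall inside the range of the Ptpn11D61Y/+ controls.

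Of 27 genes of cytokines, chemokines and the IL-1 pathway, 25 could be tested, with a median of -2.01, and 2 were separated downward and 1 upward. Without Ptpn11D61Y/+ replicate 1, 11 were separated downward (median -2.40), and without MxCre replicate 2 the median was -1.26. The downward count over all genes was 958 without Ptpn11D61Y/+ replicate 1, against 401 with all libraries. Csf1, which encodes the growth factor M-CSF, was at 7.81, 8.77, 4.53 and 5.74 in controls and at 3.91, 3.52 and 3.29 in S3 (log2 fold change -3.93, SE 0.944, adjusted p = 0.320). Ptgs2, the inducible cyclooxygenase, was at 7.62, 8.08, 5.04 and 6.29 in controls and at 4.92, 4.90 and 3.79 in S3. Il1b, the most abundant of the list per length, was at 11.60, 12.96, 7.56 and 9.67 in controls and at 9.31, 9.40 and 8.01 in S3, so S3 lay between the Ptpn11D61Y/+ controls. Il10, which encodes an anti-inflammatory cytokine, was at 2.35, 2.24, 1.81 and 2.53 in controls and higher in S3, at 2.90, 3.58 and 4.32 (log2 fold change 1.46, SE 0.454, adjusted p = 0.405).

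Of 20 innate pattern-recognition receptor genes, 3 were separated downward and none upward, with a median of -0.35 that ranged from -0.52 to -0.13 with single libraries left out. Nlrp3, the sensor of the inflammasome, was at 8.37, 9.69, 6.0 and 6.69 in controls and at 5.44, 4.30 and 5.83 in S3 (log2 fold change -3.05, SE 0.888, adjusted p = 0.384). The other separated members, Clec4n and Nod2, had gaps of 0.02 and 0.01. Clec4d, the most abundant member per length, overlapped, with 9.71 and 10.90 in MxCre, 4.37 and 6.03 in Ptpn11D61Y/+ and 6.79, 5.59 and 4.91 in S3. Without Ptpn11D61Y/+ replicate 1, 5 of the 20 receptor genes were separated downward and 2 upward. All genes gave 958 downward and 1184 upward in that setting, against 401 and 566 with all libraries.

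Genes of the circadian clock, a list added after values of these data were seen, held 5 of 18 members separated downward and none upward, with a median of -0.74. Ciart, a repressor of the clock factor BMAL1, was at 7.64, 6.66, 4.69 and 6.22 in controls and at 3.41, 2.68 and 2.34 in S3 (log2 fold change -3.77, SE 0.684, adjusted p = 0.277, and 1.09e-05 with DESeq2). Per1, a core clock repressor that is also induced by glucocorticoids, was at 9.95, 10.69, 7.55 and 8.66 in controls and at 7.13, 6.10 and 7.01 in S3. Bhlhe40, the most abundant of the list per length, was at 10.36, 9.61, 8.26 and 9.54 in controls and at 7.52, 7.82 and 7.10 in S3. Nr1d2, which encodes a REV-ERB receptor, was 0.25 apart, at 4.12, 4.04, 4.58 and 4.36 in controls and at 3.60, 3.79 and 3.64 in S3. The hour at which the spleens were taken is not given in the sources used here.

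Ahr, the receptor for aryl hydrocarbons, was at 5.52, 5.37, 4.67 and 5.17 in controls and at 3.50, 3.60 and 3.41 in S3, tight within S3 and 1.07 apart (log2 fold change -1.71, SE 0.343, adjusted p = 0.298). Ahnak, a large scaffold protein, was at 7.84, 7.73, 7.49 and 8.05 in controls and at 6.37, 6.10 and 6.62 in S3. Impact, a regulator of the translation kinase GCN2, was at 5.78, 5.89, 5.68 and 5.39 in controls and at 4.19, 4.06 and 4.44 in S3. Ahnak and Impact both had narrow control ranges. Pde4b, a phosphodiesterase that breaks down cyclic AMP, was at 8.05, 9.19, 6.45 and 6.94 in controls and at 5.35, 5.32 and 5.53 in S3. Grasp was at 7.78, 6.31, 4.87 and 6.06 in controls and at 3.45, 3.86 and 2.27 in S3. Zbtb21, a zinc finger gene, was at 5.43, 5.65, 4.70 and 5.11 in controls and at 3.46, 2.71 and 3.93 in S3. For Pde4b, Grasp and Zbtb21 both MxCre controls were higher than both Ptpn11D61Y/+ controls.

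ERK output genes mostly overlapped the controls, with a few separated members on either side. ERK induces the ETV transcription factors, and it induces its own brakes, the Sprouty proteins and dual-specificity phosphatases. Of 18 such genes, 2 were separated upward and 2 downward, with a median of -0.75. Without MxCre replicate 1, 4 were separated upward and 2 downward, and without Ptpn11D61Y/+ replicate 1 it was 3 and 4. The counts over all genes were 717 and 576, and 1184 and 958, in these settings, against 566 and 401 with all libraries. Etv5 was at 3.68, 3.19, 5.59 and 3.77 in controls and at 6.15, 5.78 and 6.52 in S3 (log2 fold change 1.79, SE 0.558, adjusted p = 0.405). Etv4 was close to the limit of detection, between -5.09 and -2.34 in controls and at -1.06, 0.00 and -0.90 in S3. Spry2 was at 3.05, 3.52, 2.17 and 3.71 in controls and at 1.93, 1.48 and 1.54 in S3. Epha2, an ephrin receptor, was at 4.59, 2.82, 1.89 and 2.28 in controls and at 0.32, -1.11 and 0.30 in S3. Egr1, the most abundant of the list per length, overlapped. None of the 20 genes of the RAS pathway was separated, with a median of -0.08, and their sum was between 1722 and 2065 CPM in all 7 libraries. With single libraries left out, this median ranged from -0.18 to 0.05. Without animal 815, 2 RAS pathway genes were separated upward, without Ptpn11D61Y/+ replicate 1, 1 upward, and without animal 540, 1 downward. All genes gave 1531 upward, 1184 upward and 632 downward in these settings.

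BCL-2 family genes, which set the threshold of mitochondrial apoptosis, all overlapped between the groups of 3 and 4 libraries. This depended on single libraries. Without Ptpn11D61Y/+ replicate 1, 3 of the 7 BH3-only genes tested and 1 anti-apoptotic gene were separated downward. Without animal 640, 2 anti-apoptotic genes and 1 effector gene were separated upward and 1 BH3-only gene downward. Without animal 815, 1 BH3-only gene and 1 effector gene were separated downward, and without MxCre replicate 2, 1 anti-apoptotic gene upward and 1 downward. Counts over all genes rose in these settings too, from 566 upward and 401 downward. They were 1184 and 958 without Ptpn11D61Y/+ replicate 1 and 967 and 944 without animal 640. Without animal 815 they were 1531 and 1024, and without MxCre replicate 2, 828 and 657. The 7 anti-apoptotic genes had a median of 0.21, which was 0.00 without animal 640 and 0.50 without Ptpn11D61Y/+ replicate 1. Mcl1, the most abundant of them per length, was at 10.91, 11.62, 8.83 and 9.90 in controls and at 9.40, 9.75 and 9.08 in S3 (log2 fold change -1.23, SE 0.661, adjusted p = 0.686). S3 lay inside the Ptpn11D61Y/+ range, and the difference was -0.02 against these controls alone and -1.88 against MxCre alone. Bcl2l1, which encodes BCL-XL, was at 5.94, 6.86, 5.41 and 4.73 in controls and at 6.05, 5.93 and 7.34 in S3 (log2 fold change 0.64, SE 0.540, adjusted p = 0.840), and was 0.00 without animal 640, 1.48 against Ptpn11D61Y/+ alone and 0.12 against MxCre alone. Bcl2 was at 5.04, 3.63, 4.89 and 4.94 in controls and at 4.48, 4.60 and 3.50 in S3. The log2 fold changes of the near-identical A1 genes were 0.66 for Bcl2a1a, 0.21 for Bcl2a1b and 0.95 for Bcl2a1d, with SEs of 0.455 to 0.663, and reads may be split between them. Without animal 815 they were 0.15, -0.93 and 0.05. Bcl2l2 was at 0.13 (SE 0.604).

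The BH3-only genes, whose products set off apoptosis, had a median of -0.70 over 7 of 8 members tested, which was -1.09 without Ptpn11D61Y/+ replicate 2 and -0.35 without MxCre replicate 2. Bcl2l11, which encodes BIM, was at 6.24, 7.22, 5.31 and 4.90 in controls and at 4.74, 4.57 and 5.47 in S3 (log2 fold change -1.22, SE 0.560, adjusted p = 0.613). Bbc3, which encodes PUMA, was at 7.04, 7.14, 4.63 and 6.09 in controls and at 5.20, 5.18 and 5.22 in S3 (log2 fold change -1.32, SE 0.539, adjusted p = 0.556). Pmaip1, which encodes NOXA and is the most abundant BH3-only gene per length, was at 10.27, 9.47, 7.77 and 9.33 in controls and at 7.58, 9.13 and 6.42 in S3. For Bcl2l11 and Bbc3 both MxCre libraries were above all S3 libraries, as was Ptpn11D61Y/+ replicate 2 for Bbc3, and the other Ptpn11D61Y/+ libraries were not. Bid differed by -0.70 (SE 0.427), Bad by -0.08 (SE 0.365), Bmf by -0.07 (SE 0.359) and the barely expressed Bik by 0.13 (SE 1.22). Of the effectors, which form the pore, Bax was at 6.81, 6.77, 6.29 and 6.88 in controls and at 6.84, 7.20 and 6.18 in S3. Bax differed by 0.09 (SE 0.354), Bak1 by 0.39 (SE 0.328) and Bok by -0.50 (SE 0.829).

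Marker lists described the myeloid cells themselves. None of 13 classical monocyte genes was separated, and their median was -0.04. Lyz2, the most abundant per length, differed by -0.15 (SE 0.586). Of 12 patrolling monocyte genes, 3 were separated upward and none downward, with a median of 0.32, which ranged from 0.07 (without animal 815) to 0.52 (without animal 540). Without animal 540, 5 were separated upward, and without Ptpn11D61Y/+ replicate 1, 4 upward and 2 downward. Cd300e, a receptor of nonclassical monocytes, was at 5.04, 5.17, 5.61 and 4.65 in controls and at 7.31, 5.89 and 8.31 in S3 (log2 fold change 2.32, SE 0.522, adjusted p = 0.301, and 1.57 without animal 640). Spn, which encodes CD43, was at 7.50, 6.64, 5.86 and 7.02 in controls and at 7.72, 7.98 and 8.81 in S3. Adgre4 was separated by 0.05. Other defining members overlapped, with Ace differing by -0.67 (SE 0.515) and Cebpb, the most abundant per length, by -3.26 (SE 1.37). Of 16 red pulp and tissue macrophage genes, C1qb was the separated member with all libraries, at 9.38, 9.67, 9.81 and 8.67 in controls and at 10.82, 10.58 and 10.39 in S3. C1qa, the most abundant macrophage gene per length and a chain of the same complement factor, overlapped. Without Ptpn11D61Y/+ replicate 1, 5 macrophage genes were separated upward, and without Ptpn11D61Y/+ replicate 2, 3 were separated downward. Counts over all genes were 566 upward and 401 downward with all libraries. They were 919 and 632 without animal 540, 1184 and 958 without Ptpn11D61Y/+ replicate 1 and 778 and 541 without Ptpn11D61Y/+ replicate 2.

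Neutrophil genes differed between the control genotypes. Mature neutrophil genes summed to 40840 and 78300 CPM in MxCre, to 4043 and 8955 in Ptpn11D61Y/+ and to 46730, 21240 and 22040 in S3. S100a9, the most abundant of them per length, was at 14.38, 15.63, 10.20 and 11.45 in controls and at 14.80, 13.78 and 13.36 in S3. Of 18 members, only Ptgs2 was separated, and the list median was -1.69. With each library omitted singly, medians ranged from -2.06, with 5 genes separated downward, without Ptpn11D61Y/+ replicate 1, to -0.66 without MxCre replicate 2. Csf3r, the G-CSF receptor, was at 11.06, 12.43, 7.36 and 8.73 in controls and at 8.80, 8.06 and 8.19 in S3. S3 was thus near MxCre for S100a9 and near Ptpn11D61Y/+ for Csf3r. None of 15 granule genes of immature neutrophils and none of 11 primary granule genes was separated, with medians of 0.54 and 0.45. With each library omitted singly, medians ranged from 0.13 (without animal 540) to 1.40 (without MxCre replicate 2) for the immature neutrophil genes and from 0.13 (without Ptpn11D61Y/+ replicate 1) to 1.03 (without MxCre replicate 2) for the primary granule genes. Without animal 815, 3 of the former and 1 of the latter were separated upward. Without MxCre replicate 2, 2 primary granule genes were separated upward, and without animal 540, 1. Upward counts over all genes were 1531 without animal 815, 828 without MxCre replicate 2 and 919 without animal 540, against 566 with all libraries. The downward count was 958 without Ptpn11D61Y/+ replicate 1, against 401. The mature neutrophil sums moved with the control genotypes, and their part in the NF-kB, immediate-early and inflammatory values was not tested.

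Of 11 NK cell genes, 4 were separated downward and none upward, with a median of -2.47. Klra8, the Ly49H receptor gene, was at 2.68, 1.39, 1.38 and 3.92 in controls and at -3.09, -1.28 and -4.32 in S3 (log2 fold change -5.52, SE 1.09, adjusted p = 0.298, and 1.77e-05 with DESeq2). Gzmb, a granzyme of killer cells, was at 1.17, 1.34, 2.72 and 3.82 in controls and at -1.77, -2.18 and 0.05 in S3. Gzma, the most abundant per length, was at 4.71, 3.78, 4.11 and 6.21 in controls and at 0.44, 3.40 and -0.74 in S3. Eomes, a transcription factor of NK cells, was 0.06 apart. The list summed to 70.7, 33.6, 105 and 272 CPM in controls and to 30.3, 93.2 and 23.2 in S3, so the sums overlapped while these members did not. With single libraries left out, list medians ranged from -3.10 (without animal 815) to -0.94 (without Ptpn11D61Y/+ replicate 2).

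B cell and T cell genes had no separated member. B cell genes summed to 1968 and 348 CPM in MxCre, to 23810 and 8073 in Ptpn11D61Y/+ and to 3839, 2207 and 881 in S3, with Ighm the most abundant in every library and no member at 0. Their median was -0.93, with all 15 fold changes below 0, but it was -0.25 without Ptpn11D61Y/+ replicate 2, -0.41 without animal 640, -1.67 without animal 540 and -2.02 without animal 540 and MxCre replicate 1. T cell genes summed to between 26.5 and 671 CPM, with a median of -0.04 that ranged from -0.53 (without animal 815) to 0.30 (without Ptpn11D61Y/+ replicate 1). Ccr7, the most abundant T cell gene per length, and also made by dendritic cells, differed by -1.59 (SE 1.01). Plasma cell genes summed to between 220 and 1633 CPM, led per length by Jchain, with 1 of 8 members separated downward (Xbp1, by 0.04), and 4 without MxCre replicate 2. The downward count over all genes was 657 without that library, against 401 with all libraries.

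Further marker lists held few separated genes. Of 12 conventional dendritic cell genes, Itgax was separated upward by less than 0.01 and Esam downward by 0.21. Of 9 basophil and mast cell genes tested, the mast cell protease gene Cma1 was separated downward, and it was at most 1.95 in controls and at most -2.73 in S3. Hdc, the most abundant of that list per length, overlapped. No member was separated among 8 plasmacytoid dendritic cell genes, 8 eosinophil genes, 14 megakaryocyte and platelet genes, 13 stem and progenitor genes and 10 genes of stroma and endothelium, with medians of 0.02, 0.52, -0.13, 0.16 and -0.84. With single libraries left out, the first 4 medians ranged from -0.47 to 0.60, 0.19 to 1.34, -0.39 to 0.71 and -0.11 to 0.30. The counts of 0 changed as well. Without Ptpn11D61Y/+ replicate 1, 3 megakaryocyte and 2 stroma genes were separated upward and 1 eosinophil gene downward. Without Ptpn11D61Y/+ replicate 2, 2 eosinophil genes and 1 stem cell gene were separated upward and 1 megakaryocyte and 1 stroma gene downward. Without MxCre replicate 2, 2 stem cell genes were separated upward and 2 stroma genes downward. The other 4 libraries moved the count of each of these 5 lists by at most 2 in either direction. Over all genes, 1184 were separated upward and 958 downward without Ptpn11D61Y/+ replicate 1, and 778 and 541 without Ptpn11D61Y/+ replicate 2. Without MxCre replicate 2 it was 828 and 657, against 566 and 401 with all libraries.

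Interferon-stimulated genes were of interest because poly I:C evokes interferon. Of 24 members, 1 was separated upward, with a median of 0.64 and 21 fold changes above 0. Without animal 640, 10 were separated upward and the median was 1.01, while it was 0.09 without animal 815 and 1.23 without MxCre replicate 2. Over all genes, 967 were separated upward without animal 640, against 566 with all libraries. Ifih1, which encodes the RNA sensor MDA5, was at 4.06, 4.85, 5.18 and 4.62 in controls and at 5.50, 5.62 and 5.35 in S3 (log2 fold change 0.76, SE 0.338, adjusted p = 0.6). Bst2, the most abundant per length, was at 7.75, 7.17, 6.54 and 6.74 in controls and at 7.27, 9.29 and 4.25 in S3, so the S3 animals spread beyond the controls on both sides.

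In the other pathway lists the members mostly overlapped. None of 11 genes of MHC class II presentation and none of 18 glycolysis and hypoxia genes was separated, with medians of -0.10 and 0.18. With single libraries left out, class II medians ranged from -0.86 (without animal 815) to 0.39 (without animal 640) and glycolysis medians from 0.02 to 0.36, with up to 6 glycolysis genes separated upward, without animal 815. Cd74, the invariant chain and the most abundant class II gene per length, differed by -0.05 (SE 0.799), and Pkm, the most abundant glycolysis gene per length, by 0.21 (SE 0.575). Among 20 cholesterol synthesis genes Sc5d was separated downward, at 4.83, 5.84, 3.84 and 4.23 in controls and at 3.51, 3.49 and 3.51 in S3, and 5 of the 20 were so without Ptpn11D61Y/+ replicate 1. Mvd, the most abundant there per length, differed by -0.61 (SE 0.343). Of 18 homing and adhesion genes, Itgax was separated upward and Icam1 downward, by 0.05, while Cxcr4, the most abundant per length and the receptor that holds cells in the marrow, differed by -1.90 (SE 0.745, adjusted p = 0.523). Of 15 growth factor receptor genes tested and of 16 myeloid transcription factor genes, the separated member was an erythroid gene each time, Epor and Gata1. Without animal 540, 3 homing genes were separated upward and none downward, without animal 640 none upward and 2 downward, and without animal 815, 3 transcription factor genes upward. Counts over all genes rose from 566 upward and 401 downward. They were 919 and 632 without animal 540, 967 and 944 without animal 640 and 1531 and 1024 without animal 815. Without Ptpn11D61Y/+ replicate 1 they were 1184 and 958.

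**Figure D4:**
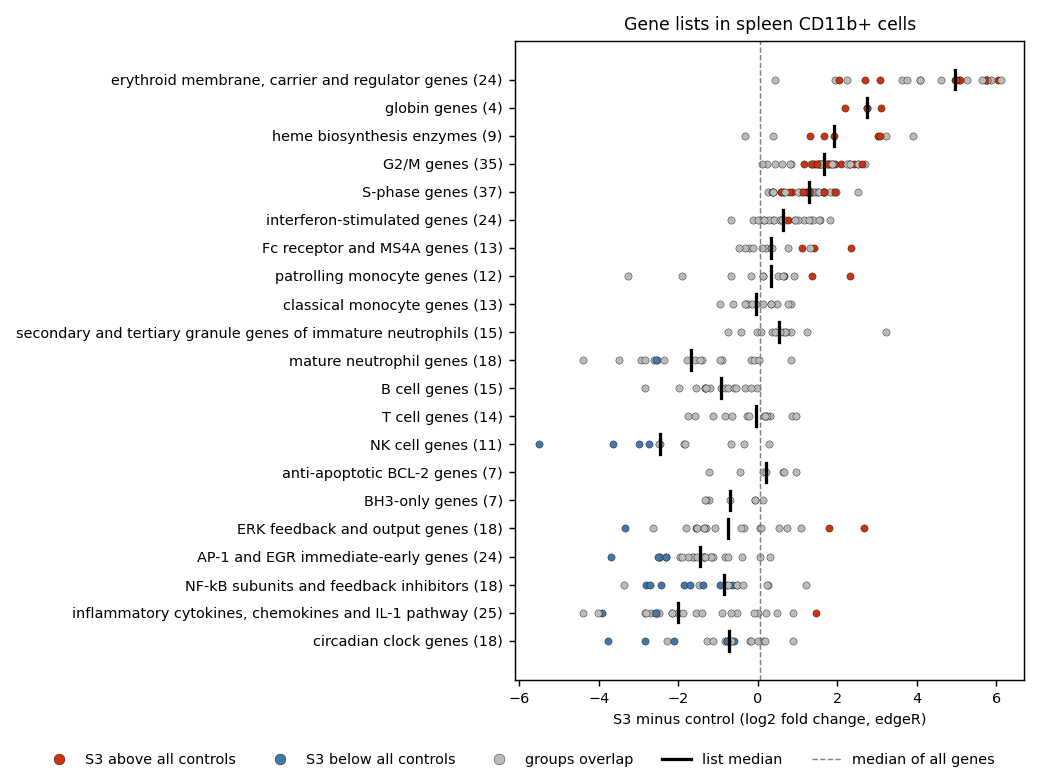
Log2 fold change (S3 minus control, edgeR) of every tested member of 21 gene lists, with the number tested in brackets, colours for members whose groups do not overlap, a black bar at each list's median and a dashed line at the median of all genes (0.04). Erythroid, globin and heme genes lie furthest to the right, and the separated members of the NF-kB, immediate-early, clock and NK cell lists lie on the left.

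Marrow CD11b+ cells gave another view of the same disease. The marrow comparison has the same numbers of libraries, and its S3 libraries come from the same 3 animals by their labels. The marrow libraries of S3 animal 540 (2780 Xist and 173 Ddx3y counts) and MxCre replicate 2 (2834 and 353) also held RNA of both sexes. Of 15210 genes tested there, 346 had every S3 library above every control (2.27%) and 276 had every S3 library below (1.81%). Of the 566 genes separated upward in the spleen, 45 were so in the marrow (7.95% of the spleen genes and 13% of the marrow genes). Of the 401 separated downward, 16 were so in the marrow (3.99% and 5.80%). Only 535 of the 566 and 335 of the 401 were tested in the marrow, and the untested genes count as not shared in these percentages.

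In the marrow none of the erythroid, globin, heme, S-phase or G2/M genes was separated, with medians of -1.03, -0.84, -0.70, -0.02 and -0.16, against 4.96, 2.75, 1.91, 1.29 and 1.65 in the spleen. Most genes separated in the spleen overlapped in the marrow by the counts over all genes given above. Without the 2 marrow libraries with RNA of both sexes none was separated either, with marrow medians of -1.52, -0.48, -1.06, -0.11 and -0.42. The difference between the tissues was tested for every gene in a fit of 14 libraries, in which 0 of 17011 genes passed (0%) with edgeR and 712 had an unadjusted p under 0.05 (4.19%), while DESeq2 called 16 with a more positive and 7 with a more negative S3 effect in the spleen. The smallest p among well expressed genes with a more positive effect in the spleen belonged to Hbb-bs, whose effects differed by 4.75 (SE 1.11, adjusted p = 0.868). Its mean was 9.15 in spleen controls and 12.43 in spleen S3, but 14.89 in marrow controls and 13.43 in marrow S3. The next were Tmcc2 (6.48), Bpgm (4.30), which encodes an enzyme of red cell glycolysis, Fech (4.37), the last enzyme of heme synthesis, and Slc4a1 (7.54). All 5 are genes of red cells, and in the marrow the mean of their controls was higher than that of S3. Of the cell-cycle genes described above, Ccne1 differed between the tissues by 2.15 (SE 0.885), Tk1 by 1.97 (SE 0.862) and Ube2c by 0.43 (SE 1.13), each with an adjusted p of 1 with edgeR.

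In the other direction, Ahnak had the smallest p among genes averaging 4 log2 CPM or more, with a difference of -2.66 (SE 0.570, adjusted p = 0.868), from a log2 fold change of -1.41 in the spleen and 1.28 in the marrow. Tppp3 (-4.23), Id3 (-2.88), a repressor of bHLH factors, Ace (-3.01) and the stress gene Nupr1 (-2.19) followed. Ace, which marks patrolling monocytes, was separated upward in the marrow, with a log2 fold change of 2.39, and overlapped in the spleen. Of the basophil and mast cell genes, 6 of 8 were separated upward in the marrow, with a median of 3.60, against none upward of 9 and a median of 0.73 in the spleen. Without the 2 doubted marrow libraries it was again 6 of 8, with a median of 3.08, and the difference between the tissues was not tested for the list. Over all marrow genes, 1127 of 16086 were separated upward in that setting, against 346 of 15210 with all marrow libraries. In the spleen, 3 of 9 were separated upward without Ptpn11D61Y/+ replicate 2 (median 1.52) and 3 without animal 640 (median 0.62). Upward counts over all spleen genes were 778 and 967 in these settings, against 566 with all libraries.

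**Figure D5:**
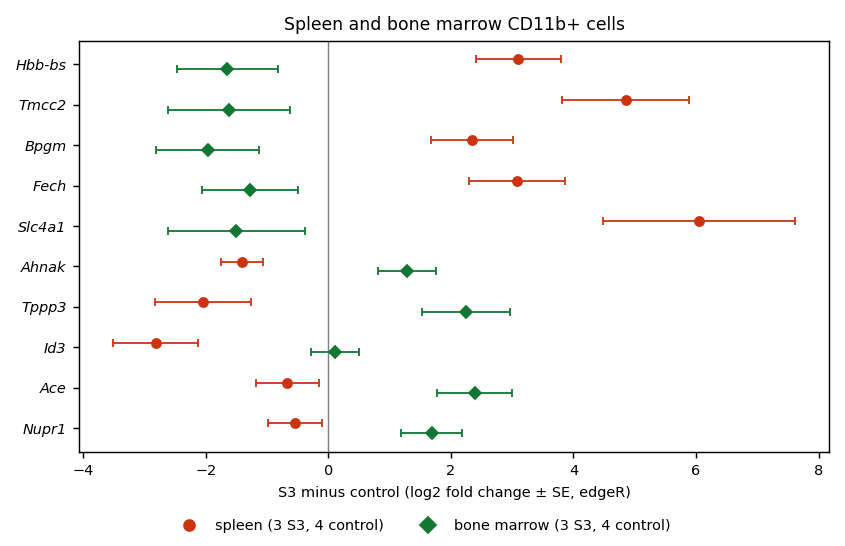
Log2 fold change of S3 minus control with its standard error (edgeR, separate fits of 7 libraries each) for the 10 genes named for the difference between spleen and marrow CD11b+ cells. The 5 red cell genes at the top are above 0 in the spleen and below 0 in the marrow, and no difference passed an adjusted p of 0.05.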

How the data were processed

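RNA was isolated from CD11b+ cells, separated on magnetic columns or by sorting, and stranded mRNA libraries were sequenced. Per the submitters' processing notes and the study's methods, the authors trimmed reads with Trim Galore 0.6.5 and mapped them to mm10 (GRCm38) with STAR 2.5.3a. The authors deposited raw counts per Ensembl gene, 1 table per library. The counting program, the annotation release and the use of strand are not given in the sources used here, so overlapping genes and near copies may share reads. Symbols matched 45143 of 45706 identifiers in a GENCODE GRCm38 annotation.

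Counts were analysed with edgeR 4.0.16 in R 4.3.3, with filterByExpr (minimum count 10, minimum total 15), TMM normalisation and a robust quasi-likelihood fit of the 7 spleen libraries, with 5 residual degrees of freedom and S3 against both control genotypes taken as a single group. The 15726 genes kept hold 99.95% of counts. Log2 CPM has a prior count of 2, and standard errors derive from the F statistic. Calls used a Benjamini-Hochberg adjusted p under 0.05. The steps were tested on simulated data. With 3 against 4 libraries, differences that are not large can be missed. The number called also depended on the tool, with 1 gene from edgeR and 99 higher and 115 lower from DESeq2. The p values measure the spread between these libraries, which for the controls are known only by number. The study's methods name 3 mice per genotype, while the labels give 2 libraries per control genotype.

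The members, gene lists and tests were chosen with earlier results of these data known, and the clock and the Fc receptor and MS4A lists after these values were seen. Named were Ptpn11, called genes, the 10 widest separations each way among genes averaging 4 log2 CPM or more, up to 4 separated members and the most abundant member per length of each list, BCL-2 genes, and 5 genes each way for spleen against marrow. That comparison used 14 libraries. S3 spleen and marrow libraries share animal numbers in the labels. Their deviations correlated at 0.099, 0.44 and 0.329 for numbers 540, 815 and 640, while the MxCre and Ptpn11D61Y/+ numbers gave 0.056 and -0.198. Number 540 had 712 Xist and 1275 Ddx3y counts in the spleen but 2780 and 173 in the marrow. Its shared number therefore does not establish a single animal. Ptpn11D61Y/+ number 1 was female in the spleen and male in the marrow by Xist and Y-linked counts. The block was thus kept as an alternative. Promoter sequences are from RefSeq (GRCm38.p6), of which 27025 genes had a window. The alternatives were DESeq2 1.42.0, limma-voom 3.58.1 with and without sample weights, other normalisations, filters and control groups, and leaving out each library. Some of the genes the rule named are not reported here.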

Additional observations from a re-analysis of the deposited data

Results flagged for a closer look

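Among 128 groups of values, 1 for each named gene and 2 for library totals and detected genes, each of 4 control libraries and checked for a library far from the others, 4 genes had such a library, where chance alone gives about 1 in 20 groups. These 4 of 128 groups are a smaller share than chance alone gives. Ptpn11D61Y/+ replicate 1 was far from the other controls for 2 of them. Its Egr1 level of 8.28 log2 CPM stood below 10.28 to 10.55 in the others, and its Fcgr1 level of 4.69 below 5.08 to 5.13. MxCre replicate 1 had a Nuf2 level of 1.24, below 2.82 to 2.92 in the other controls. MxCre replicate 2 had a Bcl2 level of 3.63, below 4.89 to 5.04. Each of these genes was compared with S3 using all 4 controls.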

How the results depend on the processing

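Against 1 gene called higher and 0 called lower by edgeR, DESeq2 called 99 and 115, limma-voom called 0 higher and its sample-weighted form 237 and 120. No filter gave 3 higher, at least 10 counts in every library 0, a coefficient for each control genotype 2, and the older quasi-likelihood method 0. S3 against MxCre alone gave 9 and 103, S3 against Ptpn11D61Y/+ alone 0 higher, and all 21 libraries together 22 and 10. Leaving out each library gave 0 to 9 genes called higher and 0 to 0 called lower. Without both S3 animal 540 and MxCre replicate 1, an alternative added after seeing the data, 0 were called higher. Ptpn11 was called with sample weights (1.24, adjusted p = 0.0449) and in none of the other 20 alternatives run for it. Separated genes numbered 566 and 401, 358 higher with at least 10 counts in every library, 53 and 58 with a gap of at least 1, and 1139 and 1014 without the 2 doubted libraries. Leaving out each library gave 717 to 1531 higher and 541 to 1024 lower, as fewer libraries separate more easily. For spleen against marrow, DESeq2 called 16 more positive and 7 more negative effects and the 21-library fit 1 more positive. The replicate block over animal or replicate numbers called 0 in each direction, as without it, and left the effect of Hbb-bs at 4.73. The causes were not tested. For S3 and control, no block could be fitted because the groups share no animal numbers. Fold changes took the other sign in at least 1 alternative for 26 of 126 named genes and for 22 of 41 list medians, and no gene passed the threshold with the other sign. Against Ptpn11D61Y/+ alone, Hdc went from -1.91 to 1.74, Cebpb from -3.26 to 0.38, Clec4d from -3.49 to 0.55, Csf3r from -2.62 to 0.19 and S100a9 from -0.10 to 3.16. The megakaryocyte median went from -0.13 to 0.71 without Ptpn11D61Y/+ replicate 1. Cxcl14 also lost its call with limma-voom (adjusted p = 0.75), the older quasi-likelihood method (0.339) and against Ptpn11D61Y/+ alone (0.164). Counting depth was at least 52965938 per library.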
